A study of Mus musculus with 4 samples.

Results

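Heparan sulfate proteoglycans and the enzymes that build and edit their sugar chains were followed through single-cell RNA sequencing of the embryonic mouse cerebellum. The group was given as a list of 34 gene symbols, and its rows were found by gene name, without use of measured values. The list itself was chosen with earlier results of these data known. All 34 were among the 32285 genes of the count matrices. It holds 6 glypicans, 4 syndecans, 3 testicans, agrin, 2 chain polymerases, 4 N-deacetylase/N-sulfotransferases, the epimerase Glce, the 2-O-sulfotransferase Hs2st1, 7 3-O-sulfotransferases, 3 6-O-sulfotransferases and 2 6-O-endosulfatases.

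Heparan sulfate is a long sugar chain attached to core proteins. Glypicans carry it on a lipid anchor, syndecans on a membrane-spanning core, and agrin and the testicans on secreted cores. Ext1 and Ext2 lengthen the chain together, the Ndst enzymes replace acetyl with sulfate groups, Glce turns glucuronic into iduronic acid, and the sulfotransferases named for the 2-O, 6-O and 3-O positions add further sulfate. The endosulfatases Sulf1 and Sulf2 work outside the cell and remove 6-O-sulfate from finished chains. The resulting pattern of sulfate sets which growth factors, guidance cues and synaptic receptors the chain binds. In the cerebellum, heparan sulfate is known to bind hedgehog and FGF ligands and Slit proteins.

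Control and conditional knockout embryos were compared at E14.5, with 2 libraries each. Controls were Atoh1-Cre/+; R26LSL-tdT/+, and the conditional knockouts (CKO) carried En1lox/lox and En2lox/lox in addition, so that Cre and the tdTomato reporter are common to all 4 libraries. Atoh1-Cre acts in the rhombic lip lineage, which forms granule cells, unipolar brush cells and the excitatory neurons of the cerebellar nuclei, and the deletion is limited to that lineage. Cerebella were pooled before dissociation, and tdTomato-positive cells were sorted and profiled with 10x Genomics 3′ chemistry. The libraries are the replicates, and nothing in the labels ties a control to a CKO library of the same number. Below, values in 4 libraries are always given in the order control replicate 1, control replicate 2, CKO replicate 1 and CKO replicate 2.

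A barcode counted as a cell if it had 500 or more genes, 1000 or more unique molecular identifiers (UMIs) and no more than 10% of them mitochondrial, which left 2911, 3931, 2007 and 3697 cells. They were then divided by the UMIs of marker genes. Cells with more Pax6 than Meis2 UMIs, a rule that favours the granule lineage, were split by Atoh1, the transcription factor of granule cell precursors, into Atoh1-positive (595, 141, 693 and 1476 cells) and Atoh1-negative cells (1206, 820, 515 and 1502). Cells with more Meis2 than Pax6 UMIs, a rule that favours nuclei neurons, numbered 603, 2322, 573 and 372. Cells with an Olig2 UMI (112, 366, 138 and 143) and cells with a Tbr1 or Lmx1a UMI (144, 511, 264 and 148) were taken from all kept cells and overlap the other classes. A single UMI can place a cell, and in droplet data free RNA can supply it.

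The libraries differed in quality and in the makeup of the classes. The median cell held 2734 and 2122 UMIs in the control libraries and 5352 and 5544 UMIs in the CKO libraries. The summed level of 7 erythroid markers was uneven: it was 51.0, 3621, 21.4 and 4.49 CPM (UMI counts scaled to a common total per library) in Meis2 > Pax6 cells, highest in control replicate 2, and 45.4, 1562, 4385 and 5.34 CPM in Atoh1-negative Pax6 > Meis2 cells, highest in CKO replicate 1. The same sum was 18.2, 9591, 7.26 and 1.31 CPM in Olig2-positive cells. In Tbr1- or Lmx1a-positive cells it was 23.6, 4573, 16.95 and 1.55 CPM, and 5 microglia markers summed there to 361.7, 9.05, 0.326 and 0.775 CPM. The part of these levels in the members' values was not tested. The Olig2 class was not the same mixture in each library, since 25.9%, 72.7%, 47.1% and 17.5% of its cells had Meis2 > Pax6, and for the Tbr1 or Lmx1a class these shares were 34%, 59.9%, 36.0% and 18.9%. No pair of libraries shared more than 6 barcodes. Marker sums were taken without the genes the gates read. The 5 remaining granule lineage markers summed to 1943 to 2678 CPM in the Pax6 > Meis2, Atoh1-negative cells and to 963.4 to 1550 CPM in the Meis2 > Pax6 cells, so they were not absent from the latter. The 5 remaining markers of excitatory nuclei neurons summed to 109.0 to 311.8 CPM and to 870.1 to 1364 CPM. The deletion itself was read from En2, which stood at 246, 193, 48.6 and 43.8 CPM in Meis2 > Pax6 cells (log2 fold change −2.24, SE 0.23, adjusted p 0.0177 by edgeR) and was lower in the CKO in each of the 5 classes. En1 stood at 537, 475, 360.3 and 742 CPM and was not called, and whether the counted 3′ ends lie in the deleted part is not given in the sources used here.

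The 250 bases before the RefSeq start site of 4 members are shown (GRCm38.p6, 5′ to 3′ on the gene's strand). These 4 are among the 14 members called in the first comparison described below. Sulf2, Hs3st4 and Spock1 were higher in Meis2 > Pax6 cells, and Gpc3 was lower there. Capitals mark the only match to any of 3 searched motifs.
Sulf2, chr2:166155684-166155933, minus strand: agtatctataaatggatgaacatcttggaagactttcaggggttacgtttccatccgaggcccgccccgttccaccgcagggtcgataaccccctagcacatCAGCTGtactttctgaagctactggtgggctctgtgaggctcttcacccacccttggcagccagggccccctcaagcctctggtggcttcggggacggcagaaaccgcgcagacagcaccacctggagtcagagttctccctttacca
Hs3st4, chr7:123982578-123982827, plus strand: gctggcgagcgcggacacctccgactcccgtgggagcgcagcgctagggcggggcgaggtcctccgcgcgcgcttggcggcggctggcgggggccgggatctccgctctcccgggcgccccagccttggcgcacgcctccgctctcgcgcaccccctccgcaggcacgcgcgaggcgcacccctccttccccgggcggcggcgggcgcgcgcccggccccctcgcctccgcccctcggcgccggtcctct
Spock1, chr13:57908333-57908582, minus strand: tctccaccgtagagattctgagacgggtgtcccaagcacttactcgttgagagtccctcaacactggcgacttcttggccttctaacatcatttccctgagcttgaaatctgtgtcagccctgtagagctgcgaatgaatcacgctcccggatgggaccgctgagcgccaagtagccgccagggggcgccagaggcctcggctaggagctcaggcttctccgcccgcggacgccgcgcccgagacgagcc
Gpc3, chrX:52613975-52614224, minus strand: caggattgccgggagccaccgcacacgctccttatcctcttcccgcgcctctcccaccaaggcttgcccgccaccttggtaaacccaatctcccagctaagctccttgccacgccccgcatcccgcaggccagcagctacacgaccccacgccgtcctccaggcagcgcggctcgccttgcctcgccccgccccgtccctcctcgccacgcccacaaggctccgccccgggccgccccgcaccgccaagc

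The 3 motifs were TAATTA, the core bound by homeodomain proteins such as Engrailed, CAGCTG, an E-box of the kind bound by Atoh1 and its relatives, and TGACAG, a Meis site. Both strands were searched over 250 bases, and no motif overlaps another in these 4 windows. RefSeq gave 31 windows for 26 of the 34 members. TAATTA was in 0 of the 31 and in 4.85% of all 32817 windows, CAGCTG in 3 (9.68%, against 13.0% of all), and TGACAG in 5 (16.1%, against 15.9%). The windows of the members were rich in G and C, with a median of 64.4% and 18 CpG dinucleotides against 52.4% and 6 over all windows. Hs3st4 was the richest of the 4 shown, at 82.0% and 43 CpG, followed by Gpc3 at 71.6% and 25, Spock1 at 61.2% and 20, and Sulf2 at 57.2% and 10. Sulf2 has a second RefSeq start, whose window held none of the 3 motifs.

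Of the 34 members, 32 had UMIs in all 4 libraries. Gpc5, Hs3st2, Hs3st3a1, Hs3st3b1, Hs3st6, Hs6st3 and Sulf1 had from 3 to 95 UMIs over all kept cells and were tested in no comparison of genotypes, and 24 members were tested in all 5 classes. The close copies Hs3st3a1 and Hs3st3b1, with 43 and 45 UMIs, could share reads. Among the sulfotransferases of the 3-O position, only Hs3st1, Hs3st4 and Hs3st5 had the counts to be tested, so this account of a family of 7 rests on those 3.

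The first comparison asked how the 2 branches of the lineage differ, Meis2 > Pax6 against Pax6 > Meis2, Atoh1-negative cells. The gates use no member. Counts were summed per library and class and fitted with the library as block (edgeR, 8 sums, all genes, Benjamini-Hochberg adjustment, threshold 0.05). Of 26 members tested, 9 were higher and 5 were lower in Meis2 > Pax6 cells. Over all genes tested 30.7% were called, 15.3% higher and 15.4% lower, and of the members 53.8% were called. All 14 called members had the same direction in each of the 4 libraries. Every library of one class lay above every library of the other for 5 of the 26 tested members upward (19.2%, Hs2st1 included, which was not called) and for 4 downward (15.4%, Gpc4 included), where 9.63% and 7.28% of all genes were separated in this sense. The low-count filter asked for 2.53 CPM in 4 libraries, and 2 of the called members passed it only through the class in which they are high: Gpc4 reached that level in 0 libraries of the other class and Sulf2 in 3. Their places in these counts are therefore no support, although both were also called in the fit without the filter (log2 differences −2.27 and 3.88). The members' median log2 difference was 0.17, against −0.01 over all genes tested.

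Sulf2 and Hs3st4 had the largest log2 differences of the members tested. Sulf2, the extracellular 6-O-endosulfatase (chromosome 2, 166073089 to 166155663), stood at 30.6, 39.0, 60.6 and 80.1 CPM in Meis2 > Pax6 cells and at 1.85, 6.63, 4.53 and 2.91 CPM in Atoh1-negative Pax6 > Meis2 cells. The difference was 3.92 on the log2 scale (SE 0.26, adjusted p 1.19e-06), or 15.1-fold. The values of Sulf2 are given as a description, since it passed the low-count filter only through the class in which it is high. Every Meis2 > Pax6 library was above every Pax6 > Meis2 library. Hs3st4, a 3-O-sulfotransferase of neurons (chromosome 7, 123982869 to 124398989), stood at 125, 82.0, 70.2 and 55.0 CPM against 5.96, 15.3, 2.72 and 3.92 CPM, a log2 difference of 3.72 (SE 0.25, adjusted p 1.32e-06), or 13.2-fold. Its groups did not overlap either, and the highest Pax6 > Meis2 value was in control replicate 2, the library with the most RNA of nuclei markers in that class (311.8 CPM, against 109.0 to 161.9 CPM in the others). Whether the Hs3st4 values are linked to these sums was not tested. Whether counting used strand is not given in the sources used here, and both genes overlap exons of a gene on the other strand. For Sulf2 that is Ncoa3, whose log2 difference was 0.37 (adjusted p 0.0985), and for Hs3st4 it is Gm27040, at no more than 3.39 CPM.

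**Figure D1:**
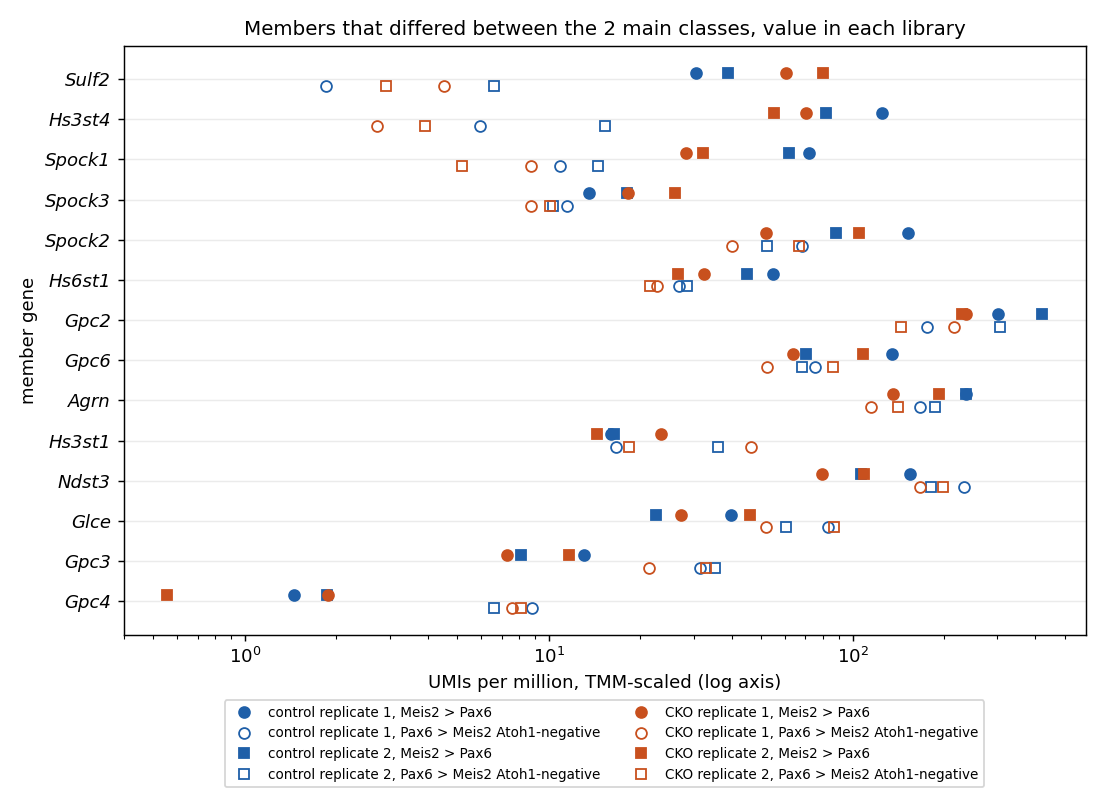
Each point is the level of one member in one library, in CPM on a log axis, for Meis2 > Pax6 cells (filled) and Pax6 > Meis2, Atoh1-negative cells (open). Sulf2, Hs3st4, Spock1 and Spock3 show filled points wholly above the open ones, and Gpc4, Gpc3, Glce and Ndst3 the reverse.

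Other enzymes of the same chain went either way. Hs6st1, which adds the 6-O-sulfate that Sulf2 removes, stood at 54.8, 44.8, 32.4 and 26.7 CPM against 26.9, 28.6, 22.6 and 21.5 CPM (log2 difference 0.65, SE 0.13, adjusted p 0.00287). It was higher in Meis2 > Pax6 cells of each library, although the lowest of those values lay within the range of the other class. Ndst3, an N-deacetylase/N-sulfotransferase, was lower, at 154, 107, 79.1 and 109.5 CPM against 232, 182, 167 and 199 CPM (−0.82, SE 0.09, adjusted p 3.86e-05). Glce, the epimerase, was lower at 39.8, 22.5, 27.2 and 46.1 CPM against 83.0, 60.5, 51.9 and 86.8 CPM (−1.08, SE 0.10, adjusted p 1.73e-05). For both enzymes no library of one class reached the other. Hs3st1, another 3-O-sulfotransferase, was lower with overlapping groups (16.0, 16.4, 23.5 and 14.46 CPM against 16.6, 36.0, 46.2 and 18.4 CPM, −0.73, SE 0.18, adjusted p 0.00891). Hs3st1 therefore went against Hs3st4, while Hs3st5, the third tested member of that family, was at 124.6, 108.5, 195 and 138 CPM against 126, 115.5, 137 and 118 CPM and was not called (0.16, SE 0.10, adjusted p 0.249). Hs2st1 was also not called (66.4, 69.1, 58.9 and 67.3 CPM against 58.5, 56.7, 55.0 and 55.8 CPM, 0.21, SE 0.08, adjusted p 0.0772), although its groups did not overlap. The polymerases Ext1 and Ext2 and the enzymes Ndst1, Ndst2, Ndst4 and Hs6st2 had log2 differences from −0.22 to 0.34, with none called.

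Among the core proteins, all 3 testicans were higher in Meis2 > Pax6 cells than in Atoh1-negative Pax6 > Meis2 cells. Testicans are secreted proteoglycans of the brain matrix that can carry both heparan and chondroitin sulfate. Spock1 (chromosome 13, 57421195 to 57908332) stood at 71.8, 61.7, 28.4 and 32.2 CPM against 10.9, 14.49, 8.76 and 5.18 CPM (log2 difference 2.32, SE 0.17, adjusted p 1.88e-06), or 5.01-fold. Its groups were far apart, although the 2 CKO libraries were the lowest of the Meis2 > Pax6 values. Spock2 stood at 153, 88.4, 51.9 and 105 CPM against 68.4, 52.2, 40.2 and 66.7 CPM (0.76, SE 0.11, adjusted p 0.000476). Spock3 stood at 13.6, 18.1, 18.3 and 26.1 CPM against 11.5, 10.3, 8.76 and 10.1 CPM (0.90, SE 0.20, adjusted p 0.00538). Without CKO replicate 2 its value was 0.70 with an adjusted p of 0.0501. Agrn, agrin, the secreted core known for gathering acetylcholine receptors at the nerve-muscle junction, was higher by 0.38 (236, 236, 136 and 192 CPM against 166, 187, 115 and 141 CPM, SE 0.08, adjusted p 0.00275).

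The glypicans divided. Gpc3 and Gpc4 lie next to each other on chromosome X, on the same strand, 107173 bases apart with 0 genes between them in the annotation, and both were lower in Meis2 > Pax6 cells. Gpc3, which binds hedgehog ligands, stood at 13.1, 8.11, 7.28 and 11.7 CPM against 31.4, 35.2, 21.4 and 33.0 CPM (−1.64, SE 0.17, adjusted p 2.63e-05). Gpc4, whose secreted form is known to promote excitatory synapses, stood at 1.46, 1.86, 1.88 and 0.556 CPM, from 3, 11, 8 and 1 UMIs, against 8.83, 6.63, 7.55 and 8.09 CPM (−2.25, SE 0.32, adjusted p 0.000341). Neither gene's groups overlapped. The values of Gpc4 are given as a description, since it was tested only through the class in which it is high. Gpc2, a glypican of developing neurons, went the other way at 302, 419.6, 235.5 and 229.6 CPM against 175, 306.5, 216 and 144 CPM (0.51, SE 0.10, adjusted p 0.00319). Gpc6 was called at 0.38 (135, 70.3, 63.6 and 108 CPM against 75.0, 68.3, 52.2 and 86.2 CPM, SE 0.12, adjusted p 0.0269). That call was lost without control replicate 1 (0.20, adjusted p 0.184), without CKO replicate 2 (adjusted p 0.0938) and with DESeq2 (adjusted p 0.0898), and in cells of stricter quality (4000 or more UMIs, no more than 5% of them mitochondrial) the value was 0.07. Gpc1 stood at 75.6, 74.0, 47.7 and 61.2 CPM against 85.2, 84.9, 49.5 and 70.9 CPM and was not called (−0.16, SE 0.08, adjusted p 0.152). No syndecan was called: Sdc3 stood at 128.5, 78.1, 54.9 and 105 CPM against 80.7, 72.9, 57.1 and 78.0 CPM (0.30, SE 0.11, adjusted p 0.0655), and Sdc1 and Sdc2 at −0.21 and −0.24.

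In cells passing the stricter quality rule, 9 of the 14 called members were still called, among them Sulf2, Hs3st4 and Spock1, while Gpc2, Gpc6, Hs6st1 and Hs3st1 were not. Gpc4 had too few UMIs there to be tested. The log2 difference of Gpc3 was −0.94 in those cells, still called. With gates read from cells thinned to 2000 UMIs, Hs3st1 stood at −1.26, Ndst3 at −0.53 and Gpc2 at 0.80.

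Genes around the same pathway were read from further lists, in the same comparison. Over all genes tested in it 30.7% were called, 15.3% higher and 15.4% lower. Of 17 tested genes for linker assembly and sugar and sulfate supply, 1 was higher (Slc35d2, a transporter of nucleotide sugars, log2 difference 1.97) and 1 lower (Slc35b2, which carries the sulfate donor into the Golgi, −0.48). Other cores that can carry the chain gave 1 higher and 2 lower of 3: Nrp1, a receptor for semaphorins, at 2.87, Col18a1, a basement membrane collagen, at −1.41, and Tgfbr3, a co-receptor for TGF-beta, at −2.52. Of 22 binding partners 7 were higher and 7 lower. Ptn, a secreted heparin-binding factor, was lower (1610, 1386, 1527 and 1837 CPM against 4784, 4794, 5870 and 6458 CPM, −1.78), while Robo1, a Slit receptor (1.24), Flrt3 (1.33), Lrrtm3, a postsynaptic receptor for heparan sulfate (2.32), and Unc5d (2.68) were higher. Of 14 tested genes of the chondroitin sulfate counterpart, 6 were higher and 0 lower, led by Vcan (1.93), Ncan (0.70), Cspg5 (1.18), Chsy3 (1.76) and Ptprz1 (0.78). Adjusted p-values of the genes named here lie between 9.58e-08 and 0.0131 (edgeR).

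The second comparison set Atoh1-positive against Atoh1-negative cells within Pax6 > Meis2. Of 27 members tested, 3 were higher and 13 lower in the Atoh1-positive cells, where 57.8% of all genes tested were called, 29.0% higher and 28.8% lower. The share of members called, 59.3%, was thus near the background. Of the lower ones, Hs6st3 and Hs3st4 passed the low-count filter (1.71 CPM here) only through the Atoh1-negative cells, where they are high, with 0 and 3 Atoh1-positive libraries at that level. Both were also called without the filter, but their places in the count of lower members are no support. Depth and cycling moved with this contrast. Median UMIs per cell were 8452, 3960, 17446 and 13062.5 in Atoh1-positive cells against 2513, 2203, 3091 and 2343.5, and 6 cycling markers summed to 2277 to 2672 CPM against 952.9 to 1196 CPM, and their part in the differences was not tested. With both gates read at 2000 UMIs, 5 of the 16 calls were made.

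Of the core proteins, Agrn, Gpc2, Gpc6, Sdc3 and Spock2 were lower in Atoh1-positive cells, and Gpc3, Sdc2 and Spock3 were higher. Agrn stood at 65.2, 82.6, 52.3 and 66.3 CPM against 161, 182, 109.6 and 137 CPM (log2 difference −1.14, SE 0.07, adjusted p 2.75e-15), and at −0.57 in the cells of stricter quality. Gpc2 stood at 82.4, 121, 93.5 and 71.2 CPM against 170.2, 299, 206 and 139.5 CPM (−1.08, adjusted p 3.95e-15). Sdc3, the syndecan of neurons, stood at 34.7, 37.4, 21.3 and 32.9 CPM against 78.4, 71.0, 54.5 and 75.5 CPM (−1.21, adjusted p 2.07e-14), and Spock2 at 28.3, 37.4, 20.7 and 36.0 CPM against 66.4, 50.9, 38.4 and 64.6 CPM (−0.93, adjusted p 1.38e-10). No library of one class reached the other for these 4 genes. Of all genes tested here, 14.7% were separated in this sense downward and 13.2% upward, and of the members 25.9% and 7.41%. Higher in Atoh1-positive cells were Gpc3 (46.7, 36.1, 38.7 and 46.6 CPM against 30.5, 34.3, 20.5 and 31.9 CPM, 0.60, adjusted p 1.97e-06), Spock3 (17.9, 19.4, 17.5 and 18.6 CPM against 11.2, 10.1, 8.37 and 9.79 CPM, 0.89, adjusted p 8.88e-07) and Sdc2 (10.7, 5.16, 11.02 and 11.7 CPM against 7.18, 6.05, 4.33 and 8.81 CPM, 0.60, adjusted p 0.00368). Control replicate 2, which had 141 Atoh1-positive cells, was the library in which Sdc2 went the other way. Spock3 was called higher both here and in Meis2 > Pax6 cells, each time against the Atoh1-negative cells. Gpc3 was thus highest in Atoh1-positive cells, intermediate in Atoh1-negative cells and lowest in Meis2 > Pax6 cells, with each step called, while Gpc4 did not differ between the Atoh1 classes beyond its spread (0.01, SE 0.17).

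Of the enzymes, Ndst3 had the lowest p-value, at 69.0, 67.1, 56.0 and 62.5 CPM in Atoh1-positive cells against 226, 177, 159.9 and 193 CPM (−1.60, SE 0.07, adjusted p 7.15e-19), or 3.03-fold. Its level was therefore lower on both sides of the Atoh1-negative class. Ndst1 was at 29.6, 21.9, 26.1 and 34.4 CPM against 45.3, 43.6, 38.9 and 45.7 CPM (−0.54, adjusted p 3.86e-06). Hs3st1 was at 8.68, 18.1, 24.5 and 10.3 CPM against 16.2, 35.1, 44.1 and 17.9 CPM (−0.85, adjusted p 5.97e-08), and Hs6st3 at no more than 0.90 CPM, from 3, 0, 10 and 18 UMIs, against 2.02 to 3.17 CPM (−1.76, adjusted p 0.000169), a description because of how it passed the filter. Smaller or less stable calls were Hs3st4 (−0.84), Hs6st1 (−0.32), Gpc6 (−0.32), Ext2 (−0.25) and Hs3st5 (−0.17). Hs3st4, Ext2 and Hs3st5 lost the call without control replicate 1 and without CKO replicate 2, Hs6st1 without control replicate 1, and Hs3st5 also without CKO replicate 1. Gpc6 stood at 0.19 in cells of stricter quality and Ext2 at 0.15 with thinned gates, both in the opposite direction and not called. Sulf2 was at 1.42, 9.03, 2.29 and 1.35 CPM against 1.80, 6.46, 4.33 and 2.81 CPM and was not called (−0.66, SE 0.31, adjusted p 0.0654). In the further lists, 0 genes were higher and 7 lower of 17 for linker and supply, and 1 and 3 of 7 for breakdown. Other cores gave 1 and 1 of 4, binding partners 5 and 15 of 23, and the chondroitin sulfate counterpart 2 and 7 of 16. Over all genes tested in this comparison 29% were called higher and 28.8% lower.

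**Figure D2:**
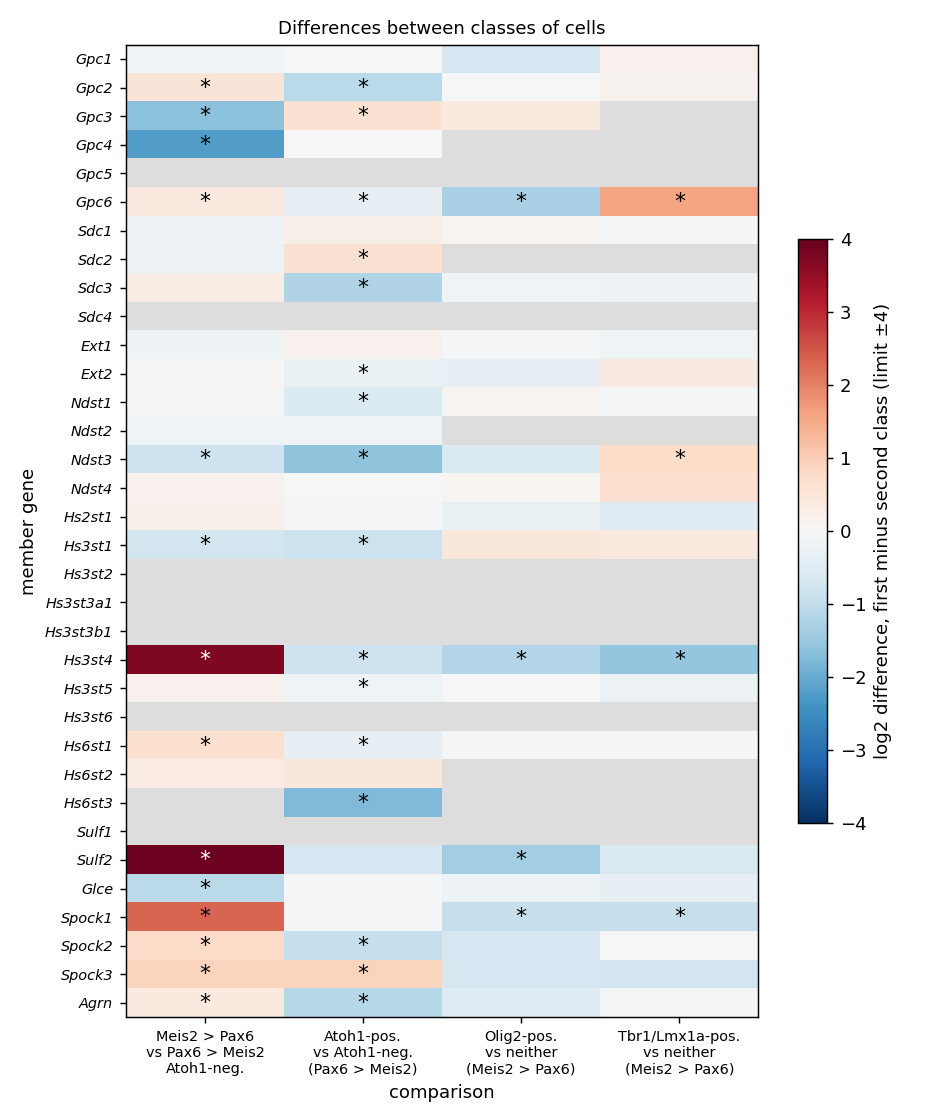
Log2 differences of the members (rows) in the 4 comparisons between classes (columns), from −4 to 4, with an asterisk where the adjusted p was under 0.05 and grey where the gene was not tested. Sulf2, Hs3st4 and Spock1 are raised in Meis2 > Pax6 cells and lowered in the Olig2-positive cells among them. The lowering was not called in cells of stricter quality.

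Within the Meis2 > Pax6 cells, those with an Olig2 UMI (29, 266, 65 and 25 cells) were set against those with none of Olig2, Tbr1 or Lmx1a (530, 1789, 421 and 319). Of 22 members tested, 0 were higher and 4 lower, against 1.16% of all genes called. Sulf2 stood at 7.53, 13.2, 34.7 and 33.4 CPM against 33.6, 46.2, 69.3 and 96.3 CPM (−1.38, SE 0.22, adjusted p 0.000352), Gpc6 at 7.53, 16.7, 34.7 and 53.5 CPM against 100.2, 69.1, 58.5 and 83.0 CPM (−1.29, adjusted p 0.00259), and Hs3st4 at 22.6, 28.7, 62.4 and 30.1 CPM against 145, 99.4, 82.2 and 65.9 CPM (−1.17, adjusted p 0.00302). Sulf2 and Gpc6 passed the low-count filter only through the cells without the markers, where they are high (3 of the 4 Olig2-positive libraries reached it), and were also called without it. Their places in the count of lower members are therefore no support, and their values are given as a description. Each of the 3 genes was lower in the Olig2-positive cells of every library, and the Olig2-positive values of Sulf2 and Gpc6 were above both controls in each CKO library, with log2 fold changes between the genotypes of 1.44 (adjusted p 0.141) and 1.41 (adjusted p 0.122) in an added fit of these cells, not called. Spock1 (22.6, 38.3, 13.9 and 36.8 CPM against 82.9, 68.1, 37.4 and 34.1 CPM, −0.93, adjusted p 0.0363) was lower in 3 of the 4 libraries, and lost its call without control replicate 1, without control replicate 2, without CKO replicate 1 and with DESeq2. The Olig2-positive cells were deeper in the CKO libraries, with median UMIs of 3183, 2650, 9391 and 10512 against 2571, 2073, 2879 and 2198. In the 4, 29, 38 and 15 of them that passed the stricter quality rule, 0 members were called, with Sulf2 at 0.14, Hs3st4 at −0.09, Spock1 at −0.13 and Gpc6 at −0.73.

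Meis2 > Pax6 cells with a Tbr1 or Lmx1a UMI (49, 306, 95 and 28 cells) had 2 members higher and 2 lower of 21 tested, against 3.58% of all genes called. Tbr1 and Lmx1a mark neurons of the medial nuclei and the unipolar brush lineage. Gpc6, a glypican known to promote excitatory synapses (chromosome 14, 116925315 to 117976544), stood at 544.5, 126, 107 and 537 CPM against 101, 69.8, 59.2 and 83.9 CPM (1.59, SE 0.18, adjusted p 1.2e-07). It was high in control replicate 1 and CKO replicate 2, and the difference was smaller in the other 2 libraries. In cells with both Tbr1 and Lmx1a UMIs, 8, 45, 16 and 8 in number, Gpc6 stood at 1633, 241.5, 338 and 835 CPM without TMM scaling, from 45, 43, 39 and 40 UMIs. In the cells of stricter quality (4, 20, 31 and 4 cells) the log2 difference was −0.14 and 0 members were called, while with thinned gates it was 2.54. Ndst3 was higher too (218, 158, 131 and 244 CPM against 155, 108, 67.4 and 115 CPM, 0.73, adjusted p 8.1e-05). Hs3st4 was lower (20.7, 44.4, 28.2 and 8.13 CPM against 146, 100.4, 83.1 and 66.7 CPM, −1.56, adjusted p 2.07e-07), with no overlap. Spock1 was lower (10.4, 53.5, 14.1 and 8.13 CPM against 83.5, 68.8, 37.8 and 34.5 CPM, −0.94, adjusted p 0.0116), and its value without control replicate 2 was −1.84. It lost its call without control replicate 1 (−0.73), without CKO replicate 1 (−0.83), with DESeq2 and with thinned gates. Hs3st4 and Spock1 passed the low-count filter only through the cells without the markers, where they are high, and were also called without it. Their places in the count of lower members are therefore no support, and their values are given as a description. Sulf2 was not called (20.7, 27.3, 56.3 and 32.5 CPM against 33.9, 46.7, 70.0 and 97.4 CPM, −0.62, adjusted p 0.0666). In both Olig2-positive and Tbr1- or Lmx1a-positive cells the level of Hs3st4 was below that of the cells with none of these markers; the 2 comparisons share those reference cells.

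The genotypes were then compared within each class, to ask whether loss of the Engrailed genes changed these genes. No member passed the test in any class. The counts were 0 of 27 in Atoh1-positive cells (0.0228% of all genes tested were called), 0 of 26 in Atoh1-negative Pax6 > Meis2 cells (0.0249%), 0 of 25 in Meis2 > Pax6 cells (0.212%), 0 of 25 in Olig2-positive cells (0.019%) and 0 of 24 in Tbr1- or Lmx1a-positive cells (0.00981%). With edgeR, 1, 4, 10, 8 and 5 members had an unadjusted p under 0.05 in the same order, against 3.99%, 10.2%, 14.7%, 7.63% and 8.94% of all genes. DESeq2 called 1 member in all, Spock1 in Meis2 > Pax6 cells. With 2 libraries a side, a p that misses the threshold does not show that the genotypes were alike. Fewer cells of a subtype and less RNA per cell cannot be told apart in these sums.

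Meis2 > Pax6 cells held the members with the lowest p-values. Spock1 stood at 71.9 and 62.2 CPM in the controls and at 28.4 and 32.5 CPM in the CKO libraries (log2 fold change −1.14, SE 0.22, unadjusted p 0.000314, adjusted p 0.0851). Both CKO libraries were below both controls, and DESeq2 gave −1.13 with an adjusted p of 0.0273. In fits with a library left out, one group has a single library, which edgeR takes to vary like the other group. In such fits, without control replicate 2 it was −1.24 with an adjusted p of 0.042 and without CKO replicate 2 it was −1.21 with an adjusted p of 0.0126, while without control replicate 1 or CKO replicate 1 it did not pass. Of all genes, 0.821% were called without control replicate 2, 5.86% without CKO replicate 2 and 0.384% without CKO replicate 1. With thinned gates its value was −0.61. Sulf2 stood at 30.6 and 39.4 CPM in the controls and at 60.6 and 80.8 CPM in the CKO libraries (0.98, SE 0.23, adjusted p 0.13), with the CKO libraries on the higher side. Its adjusted p was 0.0416 without CKO replicate 1, at 1.18, where the lone CKO library is again taken to vary like the controls, and with thinned gates its value was 1.504. Thus the 2 genes with the lowest p-values, both higher in Meis2 > Pax6 than in Pax6 > Meis2 cells, had opposite signs in the comparison of genotypes.

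**Figure D3:**
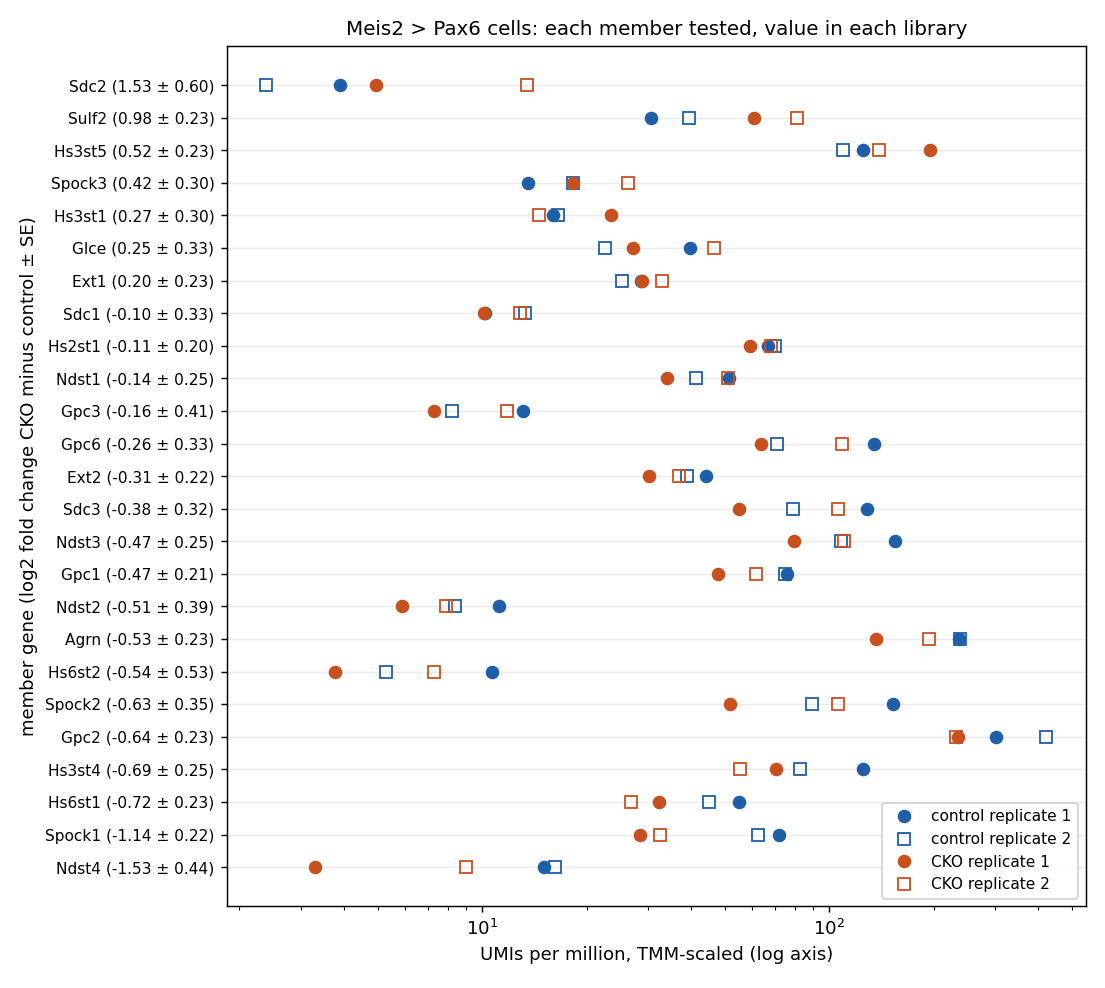
Levels of members in Meis2 > Pax6 cells, in CPM on a log axis, with controls in blue and CKO libraries in orange, replicate 1 as a filled circle and replicate 2 as an open square. Spock1, Ndst4, Hs6st1, Hs3st4 and Gpc2 are among the 9 members with both CKO libraries below both controls. Sulf2 and Hs3st5 are among the 5 with both above, and none passed the test.

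Other members in the same cells had higher p-values. Ndst4, an N-deacetylase/N-sulfotransferase, stood at 15.1 and 16.2 CPM against 3.29 and 8.98 CPM (−1.53, SE 0.44, adjusted p 0.177), and without CKO replicate 2, with the lone CKO library taken to vary like the controls, at −2.23 with an adjusted p of 0.0142. Hs6st1 stood at 54.9 and 45.2 CPM against 32.4 and 26.9 CPM (−0.72, SE 0.23, adjusted p 0.198), so the enzyme that adds 6-O-sulfate and the one that removes it had opposite signs, neither called. Hs3st4 stood at 125 and 82.7 CPM against 70.3 and 55.5 CPM (−0.69, SE 0.25, adjusted p 0.244), and Hs3st5 at 125 and 109 CPM against 195 and 139 CPM (0.52, SE 0.23, adjusted p 0.331). Of the cores, Gpc2 stood at 302 and 423 CPM against 236 and 232 CPM (−0.64, adjusted p 0.257). Agrn stood at 237 and 238 CPM against 136 and 194 CPM (−0.53, adjusted p 0.332), and Gpc1 at 75.8 and 74.6 CPM against 47.7 and 61.7 CPM (−0.47, adjusted p 0.333). Spock2 overlapped between the genotypes (153 and 89.1 CPM against 51.9 and 106 CPM, −0.63, adjusted p 0.442), and without CKO replicate 2, under the same assumption, it was −1.18 with an adjusted p of 0.037. Sdc2 stood at 3.89 and 2.39 CPM against 4.94 and 13.5 CPM (1.53, adjusted p 0.283), with the highest value in CKO replicate 2.

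Altogether 5 members of the 25 had both CKO libraries above both controls and 9 had them below, or 20% and 36% where 22% and 22.6% of all genes did. By sign, 7 were higher and 18 lower, with a median log2 fold change of −0.31 against −0.01 over all genes tested. The granule lineage markers that no gate reads summed in these cells to 1195 and 963.4 CPM in the controls and to 1448 and 1550 CPM in the CKO libraries, cycling markers to 353 and 251 CPM against 802.5 and 510.0 CPM, and the markers of excitatory nuclei neurons that no gate reads to 940.6 and 1191 CPM against 1364 and 870.1 CPM. The part of these differences in the members' values was not tested.

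Gpc1, a glypican of neurons, had the lowest p-value among Atoh1-positive cells, at 82.5 and 115 CPM in the controls against 43.9 and 62.4 CPM (−0.85, SE 0.24, unadjusted p 0.00385, adjusted p 0.67). It stood on the same side in Atoh1-negative cells (84.8 and 83.8 CPM against 49.1 and 71.4 CPM, −0.47, adjusted p 0.49), in Meis2 > Pax6 cells and in Olig2-positive cells (67.4 and 57.5 CPM against 37.6 and 39.8 CPM, −0.69, adjusted p 0.632). In each of these the CKO libraries were below the controls, while in Tbr1- or Lmx1a-positive cells the groups overlapped (68.7 and 71.1 CPM against 40.8 and 73.6 CPM, −0.32, adjusted p 0.731). Of all genes, 17%, 19.7%, 22.6% and 20.2% had the CKO libraries below the controls in the Atoh1-positive, Atoh1-negative, Meis2 > Pax6 and Olig2-positive classes. All of these classes come from the same 4 libraries. Among Atoh1-negative cells Hs3st4 was at 5.92 and 15.1 CPM against 2.69 and 3.94 CPM (−1.51, SE 0.50, adjusted p 0.415), where the nuclei markers that no gate reads summed to 156.7 and 311.8 CPM against 161.9 and 109.0 CPM. The part of these markers in the Hs3st4 values was not tested. Spock1 was at 10.8 and 14.3 CPM against 8.68 and 5.21 CPM (−0.89, adjusted p 0.46). By sign 4 were higher and 22 lower in Atoh1-negative cells, and 6 and 21 in Atoh1-positive cells, with medians of −0.17 and −0.13 against 0.00 over all genes in both.

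The Olig2 and the Tbr1 or Lmx1a classes mix cells differently in each library, and their values carry that mixture. In Olig2-positive cells Gpc2 stood at 168 and 378 CPM against 149.6 and 101 CPM (−1.12, adjusted p 0.606), Agrn at 96.6 and 184.5 CPM against 78.6 and 74.0 CPM (−0.88, adjusted p 0.632), and Spock3 at 10.0 and 8.90 CPM against 17.9 and 20.1 CPM (1.01, adjusted p 0.632). Without control replicate 1, 7 members were called there and 11.4% of all genes. The single control left, taken to vary like the CKO libraries, had 72.7% of these cells in the Meis2 > Pax6 class, against 47.1% and 17.5% in the CKO libraries. In the Olig2-positive cells that also had Meis2 > Pax6, 3 of 18 members were called, where 4.56% of all genes were: Agrn at −1.05, Gpc2 at −1.12 and Spock2 at −1.30. That choice was made after seeing the data. In Tbr1- or Lmx1a-positive cells Spock1 stood at 5.37 and 36.8 CPM against 7.498 and 7.747 CPM (−1.57, adjusted p 0.545), high in control replicate 2 alone. Gpc6 was at 171 and 101 CPM against 66.2 and 132 CPM (−0.46, adjusted p 0.682). Without control replicate 1, 3 members were called there, Agrn, Gpc2 and Spock1, and 4.25% of all genes, in a fit whose single control is the library with the high Spock1 value and is taken to vary like the CKO libraries. By sign 12 were higher and 13 lower in the Olig2 class, and 6 and 18 in the Tbr1 or Lmx1a class.

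**Figure D4:**
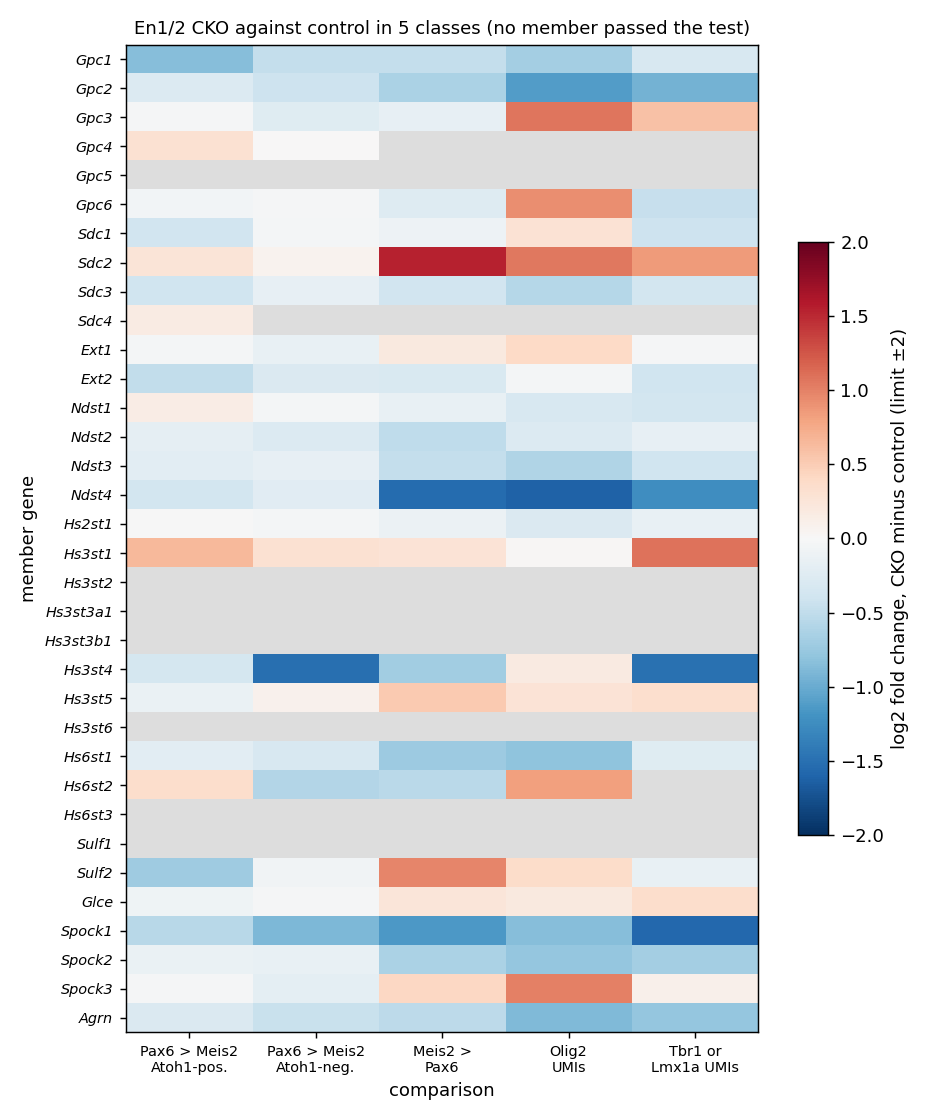
Log2 fold changes of CKO against control for the members (rows) in the 5 classes (columns), on a scale from −2 to 2, with grey where the gene was not tested. No cell carries an asterisk, since 0 members were called. Gpc1, Gpc2, Sdc3, Ext2, Ndst2, Ndst3, Ndst4, Hs2st1, Hs6st1, Spock1, Spock2 and Agrn are below 0 in all 5 classes. These classes come from the same libraries, and some share cells.

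Whether the CKO effect differed between Meis2 > Pax6 and Atoh1-negative Pax6 > Meis2 cells was tested by an interaction term. Of 26 members 0 were called, against 0.347% of all genes, and 5 had an unadjusted p under 0.05, against 7.74%. DESeq2 called 0. The lowest p-values belonged to Sdc2 (log2 difference of the effects 1.56, SE 0.52, adjusted p 0.341), Ndst4 (−1.24, SE 0.46, adjusted p 0.455), Hs3st5 (0.43, SE 0.16, adjusted p 0.455), Spock2 (−0.45, SE 0.19, adjusted p 0.552) and Sulf2 (1.17, SE 0.50, adjusted p 0.573). Sulf2 was near its detection limit in the Pax6 > Meis2 cells, with 9, 16, 15 and 23 UMIs, which limits what this test can show.

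The further pathway lists gave 0 called genes in every class. In Meis2 > Pax6 cells their median log2 fold changes were −0.04 for 17 linker and supply genes, −0.29 for 7 breakdown genes, 0.01 for 2 other cores, −0.19 for 21 binding partners and −0.61 for 13 genes of the chondroitin sulfate counterpart, against −0.01 over all genes. In these lists 2, 1, 1, 5 and 4 genes had an unadjusted p under 0.05 with edgeR, where 14.7% of all genes did.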

How the data were processed

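Cells of 2 control and 2 CKO libraries were analysed. Per the labels and the file headers, the authors deposited raw UMI counts per gene and barcode, with no normalization, and the submitters' processing notes name Cell Ranger 5.0.0 and mm10. Strand handling and the gene annotation are not given in the sources used here. Gene positions come from GENCODE M21 (GRCm38), which held 32158 of the 32285 gene IDs. The libraries held 21351661, 14998150, 27138010 and 33709450 UMIs in the order of the report.

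Counts were summed per library and class over kept cells, and no doublets were removed. edgeR 4.0.16 (R 4.3.3; filterByExpr, TMM factors, quasi-likelihood F test, two-sided) was run across all genes, with Benjamini-Hochberg adjustment and a threshold of 0.05 for a call. Values are TMM-scaled CPM, set within each comparison, so they differ slightly between comparisons. Standard errors (SE) were taken as the size of the log2 value over the square root of F. Comparisons between classes used disjoint cells with the library as block. The script was tested on simulated data.

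Alternatives were DESeq2 1.42.0, no low-count filter, DESeq2-type size factors (RLE), cells of stricter quality (4000 or more UMIs, no more than 5% of them mitochondrial), gates and counts from cells thinned to 2000 UMIs (940, 1786, 422 and 1099 shallower cells left out), doublets removed (68, 124, 32 and 109 cells by Scrublet in scanpy 1.11.5), disjoint gates, each library left out, and a replicate block. Nothing says the replicates are separate litters, so p-values of the genotype comparisons measure the spread between these libraries. Those between classes and of the interaction, with the library as block, rest on the spread of the class difference over these libraries.

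The members, pathway lists and markers were chosen with earlier results of these data known. Members called in any comparison, or with a mean of at least 50 CPM in the Meis2 > Pax6 or Pax6 > Meis2 classes, are given by library. Genes of other lists are named where called, at most 5 per list by adjusted p. Some results of these lists are not reported here.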

Additional observations from a re-analysis of the deposited data

Results flagged for a closer look

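In 7 cases the difference between 2 classes of one library went one way in both controls and the other way in both CKO libraries. Each value is the CKO mean minus the control mean of that difference, on the log2(CPM + 1) scale. None of these differences between the genotypes was tested.

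Between Atoh1-positive and Atoh1-negative Pax6 > Meis2 cells, Gpc1 gave −0.346 and Gpc4 0.388. Gpc4 stood at 7.12, 5.16, 7.97 and 8.70 CPM in Atoh1-positive cells against 8.58, 6.46, 7.21 and 7.83 CPM.

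Between Olig2-positive Meis2 > Pax6 cells and those without the markers, Gpc2 gave −0.589 and Gpc3 3.62. Gpc2 stood at 391, 451, 232 and 157 CPM against 293, 412, 233 and 243 CPM. Gpc3 had 0, 5, 9 and 10 UMIs in the Olig2-positive cells, and the 0 in control replicate 1 allows up to 22.4 CPM, above the 15.1 CPM of the other cells.

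Between Tbr1- or Lmx1a-positive Meis2 > Pax6 cells and those without the markers, Sdc1 gave −3.1, Hs3st1 0.899 and Hs6st1 1.23. Sdc1 had 3, 16, 4 and 0 UMIs in the marked cells, and the 0 in CKO replicate 2 allows up to 24.1 CPM, above the 15.0 CPM of the other cells. Hs6st1 stood at 25.9, 37.5, 42.2 and 40.7 CPM against 58.4, 46.9, 31.8 and 26.2 CPM, from 5, 33, 36 and 5 UMIs in the marked cells.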

How the results depend on the processing

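Members called in CKO against control numbered 0 in each class. In Meis2 > Pax6 cells there were 1 with DESeq2, 3 without a low-count filter (Spock1, Sulf2 and Ndst4), and 0 to 3 when a library was left out (the lone library of its group is then assumed to vary like the other group), and over all genes 25 calls became 174 with DESeq2, 559 without the filter, 5 with thinned gates and 0 with disjoint gates. In Olig2-positive cells there were 3 among those with Meis2 > Pax6 and 0 to 7 with a library left out. Without the filter there was 1 in Atoh1-negative Pax6 > Meis2 cells (Hs3st4, with 1.41% of all genes called). There was also 1 in Tbr1- or Lmx1a-positive cells (Spock1, with 1.43%). The interaction gave 0 to 1. Between classes, Olig2-positive against neither had 4 calls of 22 members tested, with 1.16% of all genes called. There were 8 of 34 without the filter (1.12% of all genes) and 8 of 20 with doublets removed (2.29%). In cells of stricter quality there were 0 of 17 (0.472%), and with thinned gates 1 of 15 (0.571%). Tbr1- or Lmx1a-positive against neither had 4 (3.58% of all genes), and 0 in cells of stricter quality (0.219%), where few cells remained. Atoh1-positive against Atoh1-negative had 16 (57.8% of all genes), and 5 with thinned gates (16.7%), where 19 members were tested. In 4 cases the sign changed, with none called: Gpc6 at 0.19 in cells of stricter quality and Ext2 at 0.15 with thinned gates in the Atoh1 comparison, and Sulf2 at 0.14 and Gpc6 at −0.14 in cells of stricter quality for the Olig2 and the Tbr1 or Lmx1a comparisons. The cause of these changes of sign was not tested. Of 371 values of called members under an alternative, 318 kept direction and call, 49 lost the call and 4 changed sign.

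Whether same-numbered libraries pair is not stated. Their deviations from the group means correlated at −0.09, −0.27, −0.21, −0.31 and −0.10 over genes (Atoh1-positive, Atoh1-negative, Meis2 > Pax6, Olig2, and Tbr1 or Lmx1a classes), and the replicate block gave 0 called members in each class, with 58 calls over all genes in Meis2 > Pax6 cells. With the numbers crossed, an alternative chosen after seeing the data, 1, 0, 4, 2 and 0 members were called. The shares of all genes called were then 0.645%, 1.52%, 6.46%, 4.27% and 0.569%. With 2 libraries a group, and 95 UMIs or fewer for 7 members, differences between the genotypes could go uncalled, not only small ones. In simulated counts, 45%, 49%, 38%, 12% and 20% of genes changed 2-fold were called, with the classes in the order above. For genes changed 4-fold these shares were 84%, 93%, 83%, 82% and 79%.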
